A study of Mus musculus with 9 samples.

Results

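The genes of sterol synthesis and of its control through the transcription factor SREBP2 were followed in mouse spinal cord, 26 genes of the 27179 identifiers in the deposited count table. They are a list of gene names, drawn up with earlier results of these data known, and fall into 8 genes of the early steps, which lead from acetyl-CoA to the isoprenoid diphosphates, 11 genes of the late steps, which lead from farnesyl diphosphate to cholesterol, and 7 genes of regulation and sterol handling. Spinal cord RNA of C57BL/6 mice was sequenced in 9 libraries, 3 biological replicates in each of 3 groups, and whether each came from 1 mouse is not stated. Control mice are labelled only as such. EAE mice had experimental autoimmune encephalomyelitis, an immune attack on central myelin that serves as a model of multiple sclerosis. EAE+EHP-101 mice, called treated mice below, had the disease and received EHP-101 by mouth at 20 mg/kg. EHP-101 is a code name for an oral preparation described elsewhere as activating PPAR gamma and a cannabinoid receptor. The labels and design text are the sources used here, and age, sex, the way the disease was induced, the day of sampling, the length of treatment and any vehicle are not stated in those sources.

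Cells make cholesterol in the endoplasmic reticulum from acetyl-CoA by way of mevalonate, squalene and lanosterol. When sterols in that membrane run low, SCAP escorts SREBP2 to the Golgi, where it is cut and released to switch on the genes of the pathway, and INSIG proteins hold the complex back when sterols are plentiful. The brain and spinal cord make their own cholesterol, since the blood-brain barrier keeps lipoproteins out, and most of it ends up in myelin, built by oligodendrocytes, while astrocytes supply neurons.

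RefSeq promoter windows (GRCm38.p6, 250 bases before to 50 bases after a start site) were found for 22 of the 26 genes. Fdps, Fdft1, Sqle and Stard4 had no entry. The 150 bases before the start site are printed, 5′ to 3′, for 6 genes whose values are described below, 5 of which fell in EAE, the last having risen. Capitals mark 3 motifs searched on both strands, the sterol regulatory element TCACCCCAC, the CCAAT box (CCAAT, or ATTGG on the other strand), which binds NF-Y, a partner of SREBP, and the E-box CACGTG.
Hmgcs1, chr13:119690201-119690350, plus strand: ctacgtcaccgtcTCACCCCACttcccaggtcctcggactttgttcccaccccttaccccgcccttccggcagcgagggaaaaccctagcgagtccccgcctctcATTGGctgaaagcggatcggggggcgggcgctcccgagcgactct
Idi1, chr13:8885456-8885605, plus strand: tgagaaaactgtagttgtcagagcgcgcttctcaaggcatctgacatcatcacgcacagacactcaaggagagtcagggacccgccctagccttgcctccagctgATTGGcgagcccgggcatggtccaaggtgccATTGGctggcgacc
Lss, chr10:76531455-76531604, plus strand: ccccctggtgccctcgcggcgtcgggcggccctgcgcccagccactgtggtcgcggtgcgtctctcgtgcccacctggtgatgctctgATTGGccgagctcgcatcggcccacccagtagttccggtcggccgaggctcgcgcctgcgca
Insig1, chr5:28071262-28071411, plus strand: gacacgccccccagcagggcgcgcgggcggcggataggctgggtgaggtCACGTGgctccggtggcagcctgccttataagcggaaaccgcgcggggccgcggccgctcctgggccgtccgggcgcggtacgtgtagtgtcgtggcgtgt
Srebf2, chr15:82147119-82147268, plus strand: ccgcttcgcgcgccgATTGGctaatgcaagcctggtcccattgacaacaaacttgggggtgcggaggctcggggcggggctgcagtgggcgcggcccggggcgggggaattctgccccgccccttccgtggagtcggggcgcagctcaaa
Mylip, chr13:45389592-45389741, plus strand: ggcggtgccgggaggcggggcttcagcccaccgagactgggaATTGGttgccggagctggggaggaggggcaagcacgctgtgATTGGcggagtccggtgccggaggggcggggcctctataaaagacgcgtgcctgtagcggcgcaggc

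Some genes have more than 1 start site, so the 22 genes had 30 windows, and a gene counted where any of its windows matched. In the whole windows, a CCAAT box lay in 20 of the 22 genes, all but Acat2 and Scap. By window it lay in 21 of 30 (70%), against 37.4% of all windows. It was present in 41.1% of 27025 genes with a window and in 42.3% of the 17492 protein-coding ones. The box GGGCGG, which binds Sp1 and was searched on both strands, was also found in 20 of 22, all but Pmvk and Ggps1, against 49.2% of the protein-coding genes. The E-box was held by Hsd17b7, Sc5d, Dhcr7, Insig1 and Scap, against 8.91% of the protein-coding genes. The letters TCACCCCAC occurred only in Hmgcs1 among the 22 genes, against 0.617% of the protein-coding genes, and the looser TCACNCCAC, which includes it, added no other gene. CCAAT boxes stood before genes that fell in EAE and also before Mylip, which rose, and before Insig2 and Srebf1, which did not pass the test. Windows differ in base composition, and a match is a description of the letters only.

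Libraries held 30448507 to 32661741 counts. CPM below stands for counts put on one library size with TMM factors, and all 26 genes passed the filter on low counts. A gene was called where edgeR's quasi-likelihood test gave an adjusted p (Benjamini-Hochberg over 16749 genes) under 0.05. All markers of oligodendrocytes, astrocytes and neurons fixed for a check of the tissue were present. Skeletal muscle markers reached 35.2 CPM together in the first Control library, against 0.929 to 1.66 CPM elsewhere. Position genes of the Hox family summed to 162 to 179 CPM in Control, 85.8 to 146 CPM in EAE and 88.5 to 182 CPM in treated mice. Every EAE library was below every Control, and EAE replicate 1 and treated replicate 3 were lowest. In EAE, Hoxc9 (log2 -1.48, adjusted p = 0.0198) and Hoxc10 (log2 -3.34, adjusted p = 0.00271) were called lower, and 3 others did not pass. The part of cord position in the results was not tested.

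EAE was first compared with Control, which asks how the disease model changes the pathway. Transcripts of 18 of the 26 genes were lower in EAE and passed the test, 1 was higher and 7 did not pass. Over all genes tested, 37.0% were called, 16.7% lower and 20.2% higher. The calls were 6 of 8 early genes lower, 9 of 11 late genes lower, and 3 lower and 1 higher of 7 regulators. The median log2 fold change was -0.40 for the early genes, -0.54 for the late genes and -0.07 for the regulators, beside 0.01 over all genes tested. Gene length moved with the groups too: within a library, the correlation across genes of length with log2 CPM relative to the mean of all 9 (genes are not independent replicates) was 0.19 to 0.34 in Control, -0.24 to -0.17 in EAE and -0.28 to 0.01 in treated mice. With each library's trend with length removed, 10.2% of all genes were called lower and 15.2% higher, and the median of the 26 genes was -0.44, beside -0.43 without that step. Whether early and late steps differ was not tested. The libraries are from whole cord, where fewer cells of a type and less RNA per cell cannot be told apart.

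**Figure D1:**
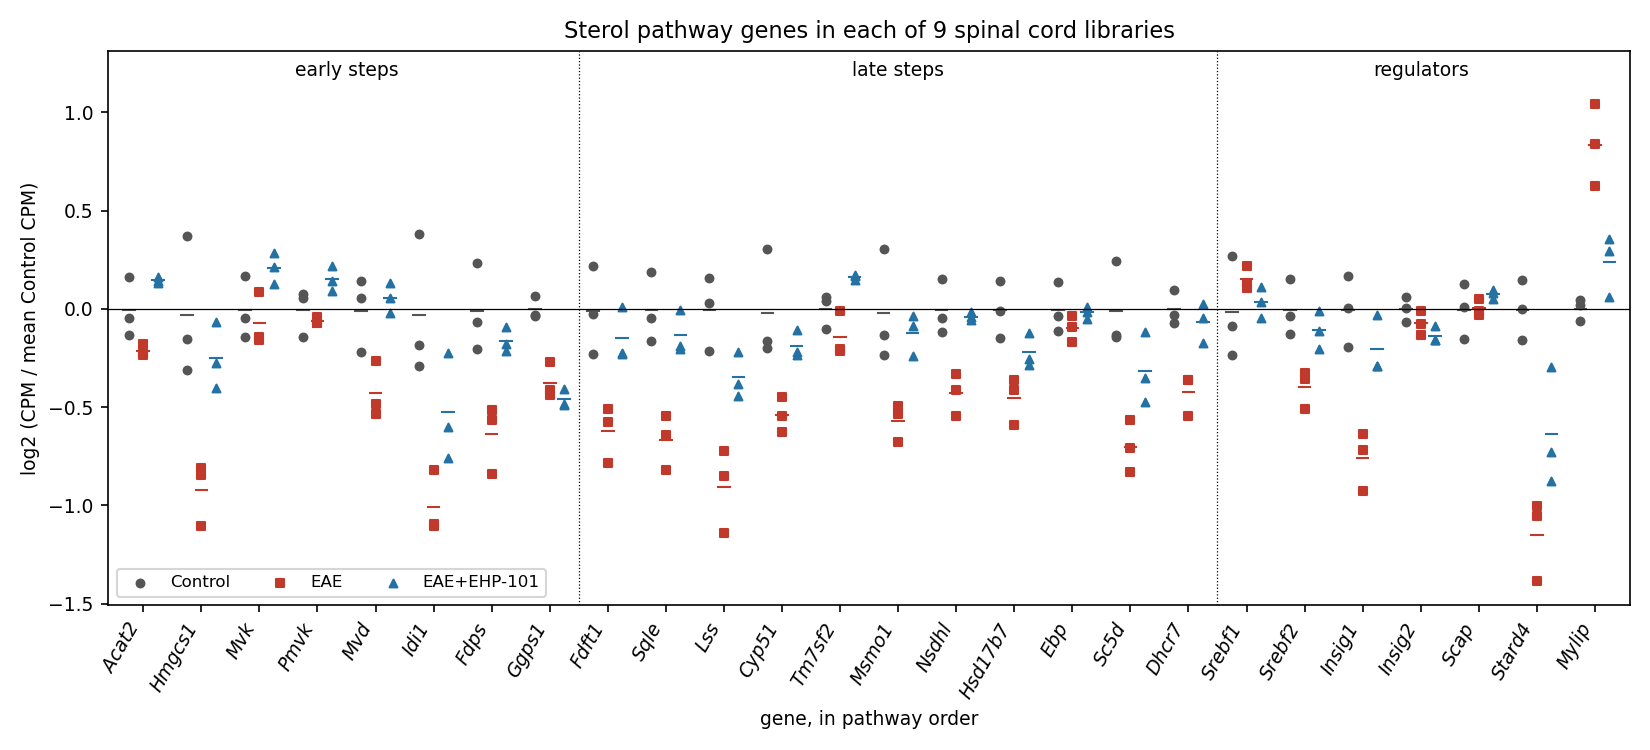
Each point is 1 library, on the vertical axis as log2 of its normalised CPM over the mean of the Controls, for the 26 genes in pathway order. Short lines mark the mean of the log2 values. The EAE squares lie below every Control circle in 18 genes and above them in Mylip.

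The first steps condense acetyl-CoA. Acat2, the cytosolic thiolase, stood at 50.1, 47.2 and 58.0 CPM in Control and at 44.3, 45.7 and 44.0 CPM in EAE. This fall of 1.16-fold (log2 -0.21, SE 0.07, adjusted p = 0.0409) was the smallest one called, and 6 of 18 alternative analyses ended the call. Hmgcs1, the cytosolic HMG-CoA synthase, had the highest level per length of the 26 genes. It stood at 547, 612 and 879.5 CPM in Control and at 378, 317 and 388 CPM in EAE, lower by 1.88-fold (log2 -0.91, SE 0.16, adjusted p = 0.00118). The groups did not overlap for either gene, and Control replicate 3 was the highest library for both. The 2 kinases that phosphorylate mevalonate did not pass. Mvk had log2 -0.07 (SE 0.10, adjusted p = 0.61) and Pmvk log2 -0.06 (SE 0.07, adjusted p = 0.509). The EAE libraries lay among the Controls for Pmvk. For Mvk the groups overlapped, at 24.24, 25.94 and 30.08 CPM in Control and 23.95, 24.22 and 28.41 CPM in EAE.

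The genes that make and extend the isoprenoid units were lower. Mvd, the decarboxylase that yields isopentenyl diphosphate, had 28.5 ± 3.61 CPM in Control and 21.3 ± 2.15 CPM in EAE (SD, n = 3), a fall of 1.34-fold (log2 -0.42, SE 0.10). Idi1, the isomerase of that product, fell from 12.2, 11.3 and 18.0 CPM to 6.49, 6.44 and 7.86 CPM (log2 -1.0, SE 0.19, adjusted p = 0.00197), the lowest EAE share of Control among the enzymes at 50.1%. Fdps, which makes farnesyl diphosphate, fell from 46.8, 51.4 and 63.3 CPM to 37.7, 30.1 and 36.4 CPM (log2 -0.63, SE 0.11). Ggps1, which branches off to geranylgeranyl diphosphate used to anchor small GTPases, fell from 44.1, 43.9 and 47.2 CPM to 33.2, 33.9 and 37.3 CPM (log2 -0.37, SE 0.06, adjusted p = 0.00123). No EAE library of these 4 genes reached the lowest Control.

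Falls went on along the late steps. Fdft1, squalene synthase and the first step committed to sterols, fell by 1.53-fold (log2 -0.62, SE 0.11), from 93.6, 108 and 128 CPM to 73.6, 63.7 and 77.2 CPM. Sqle, the epoxidase and a rate-limiting step, fell by 1.58-fold (log2 -0.66, SE 0.10, adjusted p = 0.00053), from 113, 123 and 145 CPM to 81.3, 71.9 and 86.9 CPM. Lss, which closes the rings to lanosterol, had 38.0, 44.9 and 49.0 CPM against 24.4, 20.0 and 26.6 CPM, the largest late fall at 1.86-fold (log2 -0.89, SE 0.12, adjusted p = 0.000247). In all 3 genes EAE replicate 2 was lowest and EAE replicate 3 highest of its group.

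Of the enzymes that trim lanosterol, 6 of 8 fell. Cyp51, the lanosterol demethylase, had 201 ± 40.7 CPM in Control and 138 ± 8.74 CPM in EAE (log2 -0.54, SE 0.12), and Msmo1, the methylsterol oxidase, had 184 ± 38.2 and 125 ± 8.14 CPM (log2 -0.57, SE 0.12). Nsdhl (log2 -0.43, SE 0.08) and Hsd17b7 (log2 -0.45, SE 0.09), which complete the removal of methyl groups with Msmo1, fell to 74.4% and 73.1% of Control. Sc5d, the sterol desaturase, fell from 121, 121 and 157 CPM to 81.5, 74.8 and 90.1 CPM (log2 -0.70, SE 0.12, adjusted p = 0.00114), and Dhcr7, the last reductase of one branch, from 63.9 ± 3.97 to 47.8 ± 3.37 CPM (log2 -0.42, SE 0.08). Tm7sf2, a sterol C14 reductase, and Ebp, the sterol isomerase, did not pass, at log2 -0.14 (SE 0.08, adjusted p = 0.188) and -0.10 (SE 0.07, adjusted p = 0.332). With each library's trend with gene length removed, Tm7sf2, Ebp and Pmvk passed as lower too, at adjusted p = 0.0202, 0.0495 and 0.0304, and 21 of the 26 genes were called lower.

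**Figure D2:**
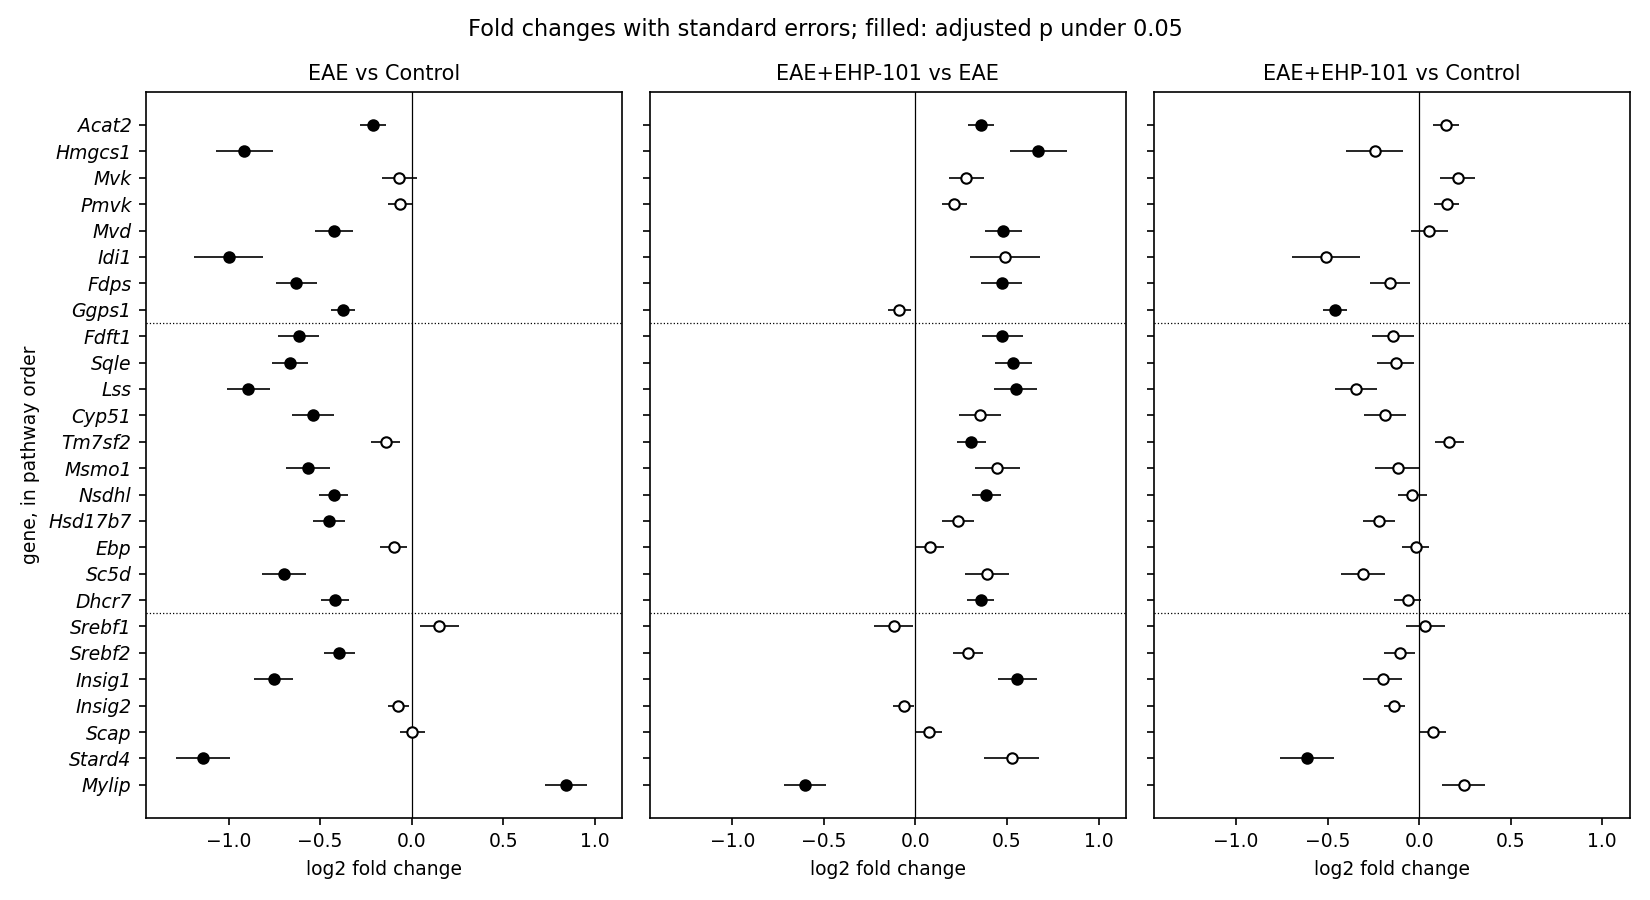
Log2 fold changes (horizontal axis) with standard errors for the 26 genes in pathway order, in 3 comparisons. Filled points passed an adjusted p of 0.05, and dotted lines part early steps, late steps and regulators. Treated mice lie to the right of EAE mice for 22 genes.

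The regulators split. Srebf2, which encodes SREBP2 and is itself one of its targets, fell from 167, 203 and 179 CPM to 146, 129 and 143 CPM (log2 -0.39, SE 0.08, adjusted p = 0.00369). Srebf1, whose products mainly drive fatty acid synthesis, had 86.8 ± 16.0 CPM in Control and 96.4 ± 3.86 CPM in EAE (log2 0.15, SE 0.11, adjusted p = 0.29). It passed as higher only without Control replicate 2 (log2 0.28, adjusted p = 0.018). Scap, the escort, had 90.9, 98.7 and 81.0 CPM in Control and 93.4, 89.6 and 88.2 CPM in EAE (log2 0.00, SE 0.07, adjusted p = 0.974), with overlapping groups.

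The INSIG genes went apart. Insig1, a retention factor that SREBP2 induces, stood at 107, 123 and 137 CPM in Control and 74.4, 64.4 and 78.7 CPM in EAE, a fall of 1.69-fold (log2 -0.75, SE 0.11, adjusted p = 0.000394). Insig2, its relative, stood at 73.3, 69.8 and 76.0 CPM and 66.7, 69.3 and 72.4 CPM (log2 -0.07, SE 0.06, adjusted p = 0.35), where the groups overlapped. Stard4, a sterol carrier in the cytosol and an SREBP2 target, had the largest fall of the 26 genes, from 38.1, 42.5 and 47.1 CPM to 20.5, 16.3 and 21.2 CPM, or 2.20-fold (log2 -1.14, SE 0.15, adjusted p = 0.000236). Mylip, also called IDOL, a ubiquitin ligase that degrades lipoprotein receptors and is induced by the oxysterol receptor LXR rather than by SREBP2, was the gene that rose. It went from 10.4, 11 and 11.2 CPM to 19.4, 22.4 and 16.7 CPM, higher by 1.79-fold (log2 0.84, SE 0.12, adjusted p = 0.000311).

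**Figure D3:**
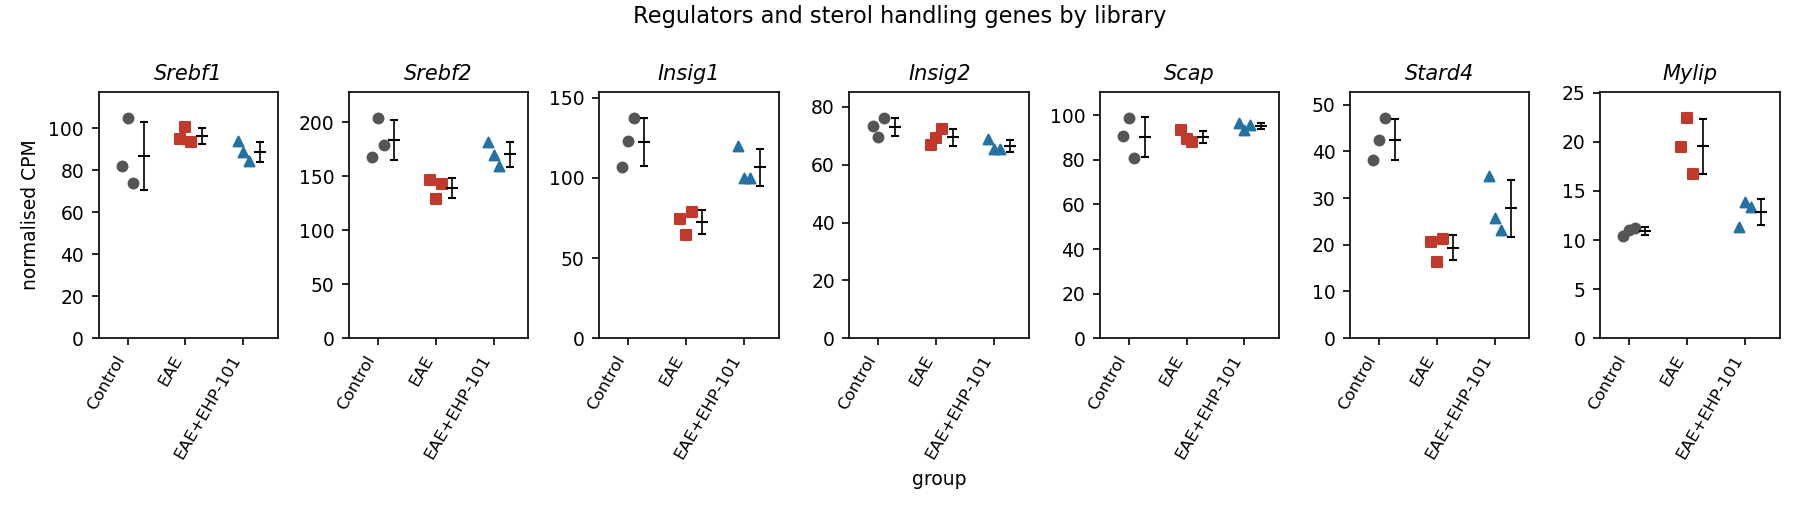
Normalised CPM of the 7 regulators and sterol handling genes in each library (points), with group mean and SD beside them (n = 3). Insig1 and Stard4 are lowest in EAE and Mylip highest, while Insig2, Scap and Srebf1 overlap between Control and EAE.

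Of the 19 calls, 18 held in each of the 18 alternative analyses run, the exception being Acat2. The number of calls ranged from 18 to 20 with each library left out in turn. EAE and Control libraries did not overlap in 18 genes with EAE lower and in Mylip with EAE higher, where 21.1% and 25.6% of all genes did not overlap in those directions.

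Treated mice were next compared with EAE mice. Whether the EAE mice received a vehicle is not stated, so the compound and the dosing itself cannot be told apart. Here 11 of the 26 genes were higher, 1 was lower and 14 did not pass. Over all genes tested 5.24% were called, 0.430% higher and 4.81% lower. The 11 genes are 42.3% of the 26 and 15.3% of the 72 genes called higher in the whole table. Those 72 rest on the libraries fitted. They became 249 without Control replicate 3, of which 14 (5.62%) were of the pathway, 169 with only the 6 libraries compared, of which 16 (9.47%) were, and 22 without EAE replicate 2, of which 2 (9.09%) were. They became 31 without EAE replicate 1, 28 without treated replicate 1 and 28 without treated replicate 2, with 3, 3 and 4 genes of the pathway. They became 46 without EAE replicate 3 and 43 without treated replicate 3, with 10 and 9, and DESeq2 called 137, with 16. The 11 pathway genes called higher with all libraries in edgeR comprised 4 of 8 early genes, 6 of 11 late genes and 1 of 7 regulators. The median log2 fold change was 0.41 for the early genes, 0.39 for the late genes and 0.07 for the regulators, beside 0.00 over all genes tested. This comparison shares its EAE libraries with the one above, so a low EAE group enters both.

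Hmgcs1 had the largest rise among the 26, at 648, 562 and 515 CPM in treated mice, above the 378, 317 and 388 CPM of EAE (1.59-fold, log2 0.67, SE 0.16, adjusted p = 0.0299). Acat2 stood at 56.7, 57.2 and 58.0 CPM (log2 0.36, SE 0.07, adjusted p = 0.015), Mvd at 29.6 ± 1.57 CPM (log2 0.48, SE 0.10, adjusted p = 0.0186) and Fdps at 50.4, 47.6 and 46.5 CPM (log2 0.47, SE 0.11, adjusted p = 0.0336). In these 4 genes every treated library was above every EAE library. Idi1 reached 11.9, 9.15 and 8.20 CPM but did not pass (log2 0.49, SE 0.19, adjusted p = 0.214), and neither did Mvk (log2 0.28, SE 0.09, adjusted p = 0.143) or Pmvk (log2 0.21, SE 0.07, adjusted p = 0.113). Ggps1 stood apart from the other early genes, at 34.0, 32.2 and 32.1 CPM against 33.2, 33.9 and 37.3 CPM in EAE (log2 -0.09, SE 0.07, adjusted p = 0.579).

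Among the late genes Sqle rose to 126, 111 and 110.2 CPM (1.45-fold, log2 0.53, SE 0.10, adjusted p = 0.0099), the one rise among the 11 that passed in all 18 alternative analyses. Lss rose to 37.8, 33.7 and 32.3 CPM (log2 0.55, SE 0.12, adjusted p = 0.0198) and Fdft1 to 111, 93.7 and 93.8 CPM (log2 0.48, SE 0.11, adjusted p = 0.0341). Nsdhl (log2 0.39, SE 0.08), Dhcr7 (log2 0.36, SE 0.08) and Tm7sf2 (log2 0.30, SE 0.08, adjusted p = 0.0498) also passed. Cyp51, Msmo1, Hsd17b7 and Sc5d had log2 values of 0.35, 0.45, 0.23 and 0.39 with adjusted p = 0.125, 0.0589, 0.195 and 0.0984, and all their treated libraries were above all EAE libraries. Ebp again showed little difference, at 29.8, 29.3 and 28.6 CPM (log2 0.08, SE 0.07, adjusted p = 0.666).

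Insig1 was the regulator that rose, to 119.8, 99.9 and 99.9 CPM (1.47-fold, log2 0.56, SE 0.11, adjusted p = 0.0115). Mylip fell, to 11.4, 13.9 and 13.4 CPM (1.52-fold, log2 -0.60, SE 0.11, adjusted p = 0.0104). Stard4 at 34.7, 25.7 and 23.2 CPM (log2 0.53, SE 0.15, adjusted p = 0.0721) and Srebf2 at 182, 169 and 159 CPM (log2 0.29, SE 0.08, adjusted p = 0.0782) did not pass, though no treated library overlapped an EAE library. Srebf1 (log2 -0.12, SE 0.11), Insig2 (log2 -0.06, SE 0.06) and Scap (log2 0.07, SE 0.07) did not pass either. Treated and EAE libraries did not overlap in 21 genes with the treated higher and in Mylip with the treated lower. Over all genes tested the shares without overlap were 10.7% higher and 16.9% lower.

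The count of calls in this comparison rested on single libraries. It was 2 in place of 12 without EAE replicate 2, 4 without EAE replicate 1, 4 without treated replicate 1 and 5 without treated replicate 2. The median log2 fold change of the 26 genes was 0.36 with all libraries and 0.33, 0.37, 0.32 and 0.39 in these 4 settings. Mylip and Insig1 each lost the call only without EAE replicate 2.

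Treated mice were last compared with Controls, which asks how far apart the groups are with the compound on board. Here 2 of the 26 genes passed, both lower, where 19.8% of all genes were called, 9.82% lower and 9.96% higher. Ggps1 was at 32.8 ± 1.06 CPM against 45.1 ± 1.87 CPM (log2 -0.46, SE 0.06, adjusted p = 0.00432), and this call held in all 18 alternative analyses. Stard4 was at 27.8 ± 6.06 CPM against 42.5 ± 4.49 CPM (log2 -0.61, SE 0.15, adjusted p = 0.0163), a call lost without treated replicate 2 (adjusted p = 0.0789) or treated replicate 3 (adjusted p = 0.0655). Control replicate 1 or 3 left out gave 4 calls, treated replicate 1 left out gave 5, and treated replicate 2 or 3 left out gave 1. Without Control replicate 3, Acat2 (log2 0.22, adjusted p = 0.0175) and Mvk (log2 0.29, adjusted p = 0.0417) were called higher. The other 24 genes lay between log2 -0.51 for Idi1 (SE 0.18, adjusted p = 0.0739) and 0.24 for Mylip (SE 0.12, adjusted p = 0.164). Lss had log2 -0.35 (SE 0.12, adjusted p = 0.0559) with all treated libraries below all Controls. Treated and Control libraries did not overlap in 4 genes with the treated lower and 3 with the treated higher, where 17.5% and 19.0% of all genes did not overlap in those directions. The medians were -0.05 for early genes, -0.13 for late genes and -0.11 for regulators, beside 0.01 over all genes tested. Failing the test does not show that these genes equal the Controls.

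Within groups, certain libraries were the highest or lowest for most of the 26 genes. Control replicate 3 was the highest Control for 21 of the 26 genes, EAE replicate 2 the lowest of its group for 18, and treated replicate 1 the highest of its group for 22. No share over all genes stands beside these counts, so they cannot tell a trait of the pathway from a shift of the whole library. Whether they are particular to these genes was not tested. The summed level of the 19 enzymes was 1698, 1819 and 2365 CPM in Control, 1286, 1154 and 1350 CPM in EAE, and 1893, 1709 and 1637 CPM in treated mice, so the highest EAE library was below the lowest library of either other group.

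Markers of other cells moved across the same libraries. The 6 infiltrating macrophage markers, such as Lyz2 and Ms4a7, all rose in EAE and all fell in treated mice against EAE. They summed to 12.1 to 14.8 CPM in Control. In replicates 1, 2 and 3 the sums were 441, 623 and 447 CPM in EAE, and 29.6, 59.9 and 82.0 CPM in treated mice. The 6 microglia markers used summed to 266 to 329.7 CPM in Control, 549 to 702 CPM in EAE and 328 to 440.4 CPM in treated mice, and 4 of 6 rose in EAE, among them Olfml3 (log2 1.56) and Cx3cr1 (log2 1.61). The 6 T cell markers all rose in EAE, from 0.190 to 0.526 CPM in Control to 9.36 to 10.9 CPM, with 0.736 to 4.45 CPM in treated mice. The 5 neutrophil markers summed to 11.7 to 18.5 CPM in Control, 34.9 to 57.1 CPM in EAE and 35.2 to 57.4 CPM in treated mice, so treated and EAE libraries overlapped. S100a8 had log2 0.84 (SE 0.49, adjusted p = 0.456) and S100a9 log2 1.12 (SE 0.50, adjusted p = 0.303) in treated mice against EAE, while Csf3r fell (log2 -1.02, SE 0.22). The 6 endothelial markers all fell in EAE, from 133 to 223 CPM to 61.0 to 108 CPM, with 121 to 139 CPM in treated mice. None of these 6 passed in treated mice against EAE. No defining marker of these lists was at 0 in all libraries, and their part in the results was not tested.

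Markers of oligodendrocytes, astrocytes and neurons are given next, and their part in the results was not tested. The 12 oligodendrocyte markers summed to 30407 to 41309 CPM in Control, 31814 to 36607 CPM in EAE and 36799 to 38254 CPM in treated mice, and 2 rose (Mag, log2 0.28, and Cldn11, log2 0.51) and 1 fell (Mobp, log2 -0.24, SE 0.09) in EAE. Control replicate 3 had the highest sum of the 9. Of 8 astrocyte markers 3 rose in EAE, with sums of 6302 to 7841 CPM in Control, 8274 to 10154 CPM in EAE and 7107 to 7551 CPM in treated mice. Gfap (log2 0.79), Aqp4 (log2 0.52) and Aldh1l1 (log2 0.50) were those, and Aldh1l1 fell in treated mice against EAE (log2 -0.29, SE 0.07, adjusted p = 0.0433). Of 8 neuron markers 3 fell in EAE, Elavl4 (log2 -0.46), Syt1 (log2 -0.41) and Snap25 (log2 -0.20).

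**Figure D4:**
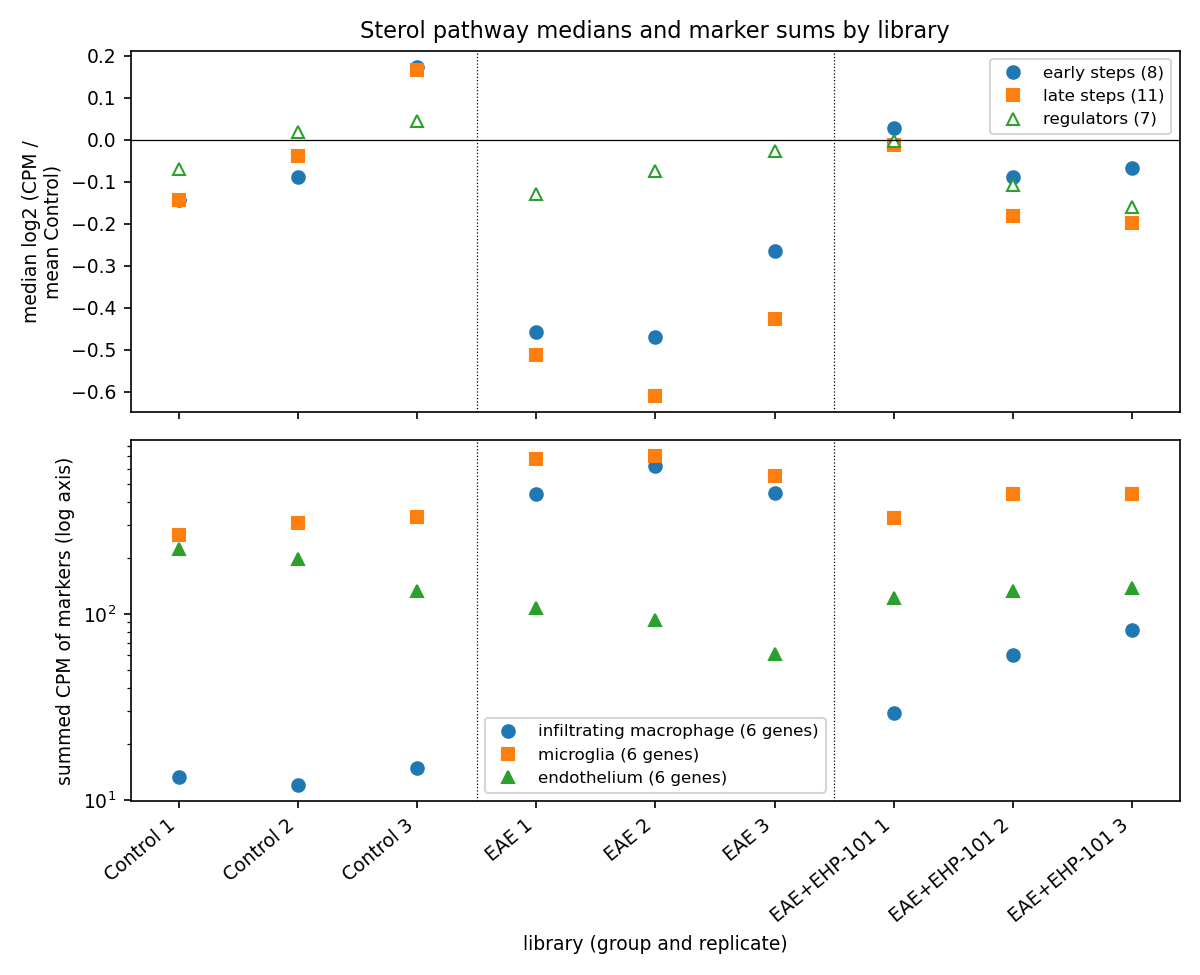
Upper panel, the median over genes of log2 CPM relative to the Control mean, for early, late and regulator genes in each library. Lower panel, summed CPM of markers of 3 cell types on a log axis. Late-step medians run from -0.61 to -0.43 in EAE and from -0.20 to -0.01 in treated mice, and macrophage marker sums are highest in EAE.

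Another 4 pathways were followed for comparison. Fatty acid synthesis, the arm governed mainly by SREBP1, had 7 of 13 genes lower and 1 higher in EAE, with a median of log2 -0.29, where 16.7% of all genes were called lower and 20.2% higher. They included the elongase Elovl6 (log2 -0.53, SE 0.06), the desaturase Scd1 (log2 -0.57, SE 0.09) and the acetyl-CoA synthetase Acss2 (log2 -0.42, SE 0.08). The gene higher was Thrsp (log2 0.29, SE 0.08), a regulator of lipid synthesis. In treated mice against EAE the median was log2 0.08 and Gpam, which starts triglyceride synthesis, was lower (log2 -0.40, SE 0.06), while Scd1 had log2 0.31 (SE 0.09, adjusted p = 0.0882). Genes of SREBP cleavage and sterol-regulated degradation had 1 of 9 lower in EAE, the site-2 protease gene Mbtps2 (log2 -0.21, SE 0.06). That count, like the next, lies near the share over all genes. The branch from isoprenoids to dolichol, ubiquinone and prenylated proteins had 2 of 10 lower in EAE, Pggt1b and Pdss1 (log2 -0.54, SE 0.16), and 1 higher, Coq2 (log2 0.23, SE 0.07), with Pdss1 and Coq2 both acting in ubiquinone synthesis. Pggt1b, which attaches geranylgeranyl groups to proteins, was lower in EAE (log2 -0.50, SE 0.08) and in treated mice against Control (log2 -0.51, SE 0.08).

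Of 7 genes that esterify, release or oxidise sterols, 4 rose in EAE, where 20.2% of all genes were called higher, and 3 did not pass, namely Nceh1 (log2 -0.10), Cyp46a1 (log2 0.05) and Cyp7b1 (log2 0.21). Ch25h, which makes 25-hydroxycholesterol, a brake on SREBP processing, rose from 0.368 ± 0.110 to 6.53 ± 1.86 CPM (log2 4.14, SE 0.35, adjusted p = 3.28e-05) and stood at 1.39 ± 0.528 CPM in treated mice (log2 -2.23, SE 0.29 against EAE, adjusted p = 0.00225). Soat1, which esterifies cholesterol for storage, rose (log2 0.33, SE 0.09), as did the lysosomal lipase gene Lipa (log2 0.39, SE 0.09) and Cyp27a1, which makes 27-hydroxycholesterol (log2 0.20, SE 0.07). Soat1 and Lipa were lower in treated mice than in EAE, at log2 -0.47 (SE 0.09) and -0.44 (SE 0.09). Cyp27a1 had log2 0.14 (SE 0.07, adjusted p = 0.367) in treated mice against EAE and was higher than in Control (log2 0.33, SE 0.07, adjusted p = 0.0103).

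Per length, the order of levels was led by Hmgcs1 at 207 ± 53.6 RPKM in Control (CPM per kilobase of the gene length in the table), ahead of Msmo1 at 101 ± 20.9 and Sc5d at 59.2 ± 9.34 RPKM. Cyp51, Insig1 and Sqle followed at 46.2 ± 9.36, 46.2 ± 5.70 and 46.1 ± 5.87 RPKM and did not differ from each other beyond their spread. Idi1 at 4.83 ± 1.27 and Mylip at 3.65 ± 0.138 RPKM were lowest. In EAE Hmgcs1 was still first, at 109.9 ± 11.8 RPKM, and Mylip at 6.55 ± 0.947 RPKM was above Idi1 at 2.42 ± 0.281 RPKM. Levels of several genes are uncertain, since the handling of reads that fit more than 1 place is not stated. Of the different 50-base words in annotated transcripts, the length of a read, 39.1% of Acat2 also occur in its near-copy Acat3, 26.2% of Fdps and 17.7% of Idi1 in other genes or pseudogenes. These words lie on the same strand, as do 9.87% of Tm7sf2 and 9.38% of Fdft1 that are shared. On the opposite strand, 17.2% of Fdft1, 11.6% of Hmgcs1, 11.2% of Acat2 and 9.96% of Scap are shared with other genes. Exons of Fdft1 overlap those of the lysosomal protease gene Ctsb on the opposite strand over 774 bases, 27.0% of its length, and the strand setting of the counting is not given in the sources used here.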

How the data were processed

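The authors deposited raw counts of reads for each gene in 1 table, keyed by Entrez identifier, per the file headers. Poly-A selected, stranded libraries gave single-end reads of 50 bases, per the labels' protocols. The build mm10 and the tools HISAT2 2.1.0, Trimmomatic 0.36, DESeq2 1.20.0 and featureCounts 1.6.1 come from the submitters' processing notes, which give no roles here. Symbols came from a RefSeq table of GRCm38.p6, which matched 25275 of 27179 identifiers and all 26 genes of the pathway.

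In R 4.3.3, edgeR 4.0.16 (filterByExpr, TMM factors, quasi-likelihood test, 1 mean per group over all 9 libraries, prior degrees of freedom 5.28) was fitted to 16749 genes and tested on simulated data. Standard errors were derived as |log2 fold change| / sqrt(F). The labels call the samples biological replicates of 1 experiment, and p-values measure the spread between them. Alternatives were other scalings, DESeq2 1.42.0, no filter, removal of each library's trend with gene length (lowess, span 0.3), a replicate block, 6 libraries only, and each library left out. Genes of the pathway and all lists were chosen with earlier results of these data known. All 26 genes are named. Of other lists up to 3 genes (markers 2) with the smallest p in EAE are named, and others where a list had 5 or fewer calls, chosen after their values were seen. A marker of the microglia list is not reported here and was left out of its sum and count.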

Additional observations from a re-analysis of the deposited data

How the results depend on the processing

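Across 18 alternatives no call of the 26 genes turned its direction, and for EAE against Control their count stayed within 1.5 times the 19 reported. The count for treated mice against EAE (12 reported) ranged from 2 to 15 with libraries left out, and that for treated mice against Control (2 reported) from 1 to 5. DESeq2 called 5 for treated mice against Control and 17 for treated mice against EAE. Counts over all genes ranged from 4378 to 7095, from 370 to 1170 and from 629 to 3739 in the 3 comparisons with libraries left out. With the length trend removed 1553 genes were called for treated mice against Control, in place of 3314. Library totals moved the share of higher calls there from 50.4% to 62.3%. The replicate block gave 18, 11 and 2 pathway genes in the 3 comparisons, and 5345, 722 and 2272 over all genes. The block with the length trend removed gave 3540 and 909 genes for EAE and for treated mice against Control. No pairing by replicate number was visible: same-numbered libraries correlated in their deviations from -0.24 to 0.19, other pairs from -0.27 to 0.32. With 3 libraries per group this check cannot exclude a pairing. Over the 26 genes and 18 alternatives, 468 pairs in each comparison, a call was lost in 6, 42 and 2 and gained in 5, 21 and 14. The cause was not tested. Limits set by depth for these genes were not tested.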

Other observations

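The levels of the INSIG genes were set against each other per length in each library, a pair chosen after their values were seen, so the ratio is a description. The ratio of Insig1 to Insig2 RPKM was 1.39, 1.68 and 1.72 in Control, 1.06, 0.886 and 1.04 in EAE, and 1.66, 1.46 and 1.46 in treated mice. EAE libraries were below those of both other groups, and treated mice overlapped with Controls.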
